A study of Homo sapiens with 11 samples.

Results

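The genes described here are 44 genes of protein folding in the endoplasmic reticulum (ER) and of the unfolded protein response, read in PC3 and DU145 prostate cancer cells with and without overexpression of the sialyltransferase ST6GAL1. They were chosen by name from knowledge of the pathway, with no threshold on their values but with earlier results of these data known, and each was matched through its Entrez identifier to a row of both count tables, so that 44 of the 28395 genes in the tables were taken and all 44 were abundant enough to be tested in every fit. The set holds 9 luminal chaperones and their partners, 3 genes of the lectin chaperone cycle, 4 disulfide isomerases, 5 genes of ER-associated degradation (ERAD), 4 sensors and transducers of the unfolded protein response, 6 regulators around ATF4 and DDIT3, 7 genes mostly of amino acid supply that ATF4 is known to drive, and 6 subunits of the oligosaccharyltransferase.

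PC3 and DU145 are established human prostate cancer lines, first grown from a bone and a brain metastasis. Cells of either line were given lentiviral particles with the ST6GAL1 coding sequence or negative control particles, and stable populations were grown, so that all groups carry an integrated lentivirus and each group is a transduced population of 1 line. RNA-Seq counts are described for 3 control and 3 ST6GAL1 overexpression libraries of PC3, and for 3 control and 2 ST6GAL1 overexpression libraries of DU145, the latter numbered replicates 2 and 3. The comparisons ask how the mRNA of the folding machinery differs when a Golgi glycosyltransferase is overexpressed.

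Gene counts totalled between 13194485 and 18201359 per library, at which a count of 3 corresponds to at most 0.227 CPM (counts scaled to a common library size), a floor that covers counting error only. ST6GAL1 rose in every overexpression library, by a log2 fold change of 3.58 (standard error 0.10) in PC3 and 4.65 (standard error 0.10) in DU145. The transcript was also at a higher level in DU145, at 348 and 298 normalised CPM against 33.4, 31.8 and 32.6 in PC3. The epithelial keratin transcripts KRT8 and KRT18 were abundant in both lines, and KLK3, which encodes prostate-specific antigen, was at 0 in all 11 libraries. Among markers of other cells, the T cell gene CD3E was at 0 in all 11 libraries, and the fibroblast genes DCN and LUM and the endothelial gene CDH5 were each at or below a mean of 0.0973 CPM in every group. Not all markers were this low. In both PC3 groups 5 of 6 leukocyte, 5 of 7 fibroblast and 3 of 5 endothelial markers had a mean below 1 CPM. In both DU145 groups 4 of 6 leukocyte and 6 of 7 fibroblast markers did so. Of the 5 endothelial markers, 5 did so in DU145 control and 4 in DU145 overexpression libraries. CD68 was among the leukocyte markers with counts. The 6 leukocyte markers summed to between 20.2 and 22.5 CPM in PC3 and between 54.6 and 61.8 CPM in DU145. The 7 fibroblast markers summed to between 29.5 and 36.6 CPM in PC3 and between 3.88 and 7.39 in DU145, and the 5 endothelial markers to between 12.4 and 15.1 and between 0.568 and 2.06 CPM. The PC3 libraries were very alike, with a biological coefficient of variation of 0.0226, while that of DU145 was 0.0817, and the DU145 overexpression libraries differed more from each other than any other pair of replicates. The labels call the libraries biological replicates, all of them come from the same stable populations, and p-values measure the spread between them. Within a line, any other difference between the transduced populations therefore cannot be told apart from an effect of ST6GAL1. In bulk RNA, fewer cells that express a gene and less of its RNA per cell cannot be told apart.

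Secreted and membrane proteins are folded in the ER, where the chaperone HSPA5 (BiP) and its co-chaperones hold unfolded chains, the lectins calnexin and calreticulin hold chains by their N-glycans, disulfide isomerases set the cysteine bonds, and ERAD sends failed chains to the proteasome. When unfolded proteins build up, the sensors ERN1 (IRE1), ATF6 and EIF2AK3 (PERK) are activated: IRE1 splices XBP1 mRNA, ATF6 is cut to give a transcription factor, and both routes drive chaperone and ERAD genes. PERK phosphorylates the initiation factor eIF2, which slows translation in general but favours that of ATF4. Other kinases, among them GCN2 in amino acid shortage, act on the same factor, so ATF4 and its targets, which import and make amino acids, also respond outside the ER. This shared arm is called the integrated stress response. XBP1 splicing, ATF6 cleavage, eIF2 phosphorylation and ATF4 translation are not read by gene counts.

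The letters by which these branches are classically recognised are shown first, since the changes of their genes are set against them further on. Promoter windows of RefSeq (GRCh38.p14), from 250 bases before to 50 bases after each annotated start, were found for 40 of the 44 genes and for 18304 genes in all, and no window was at hand for PDIA3, SLC7A11, STT3B or RPN1. Both strands were searched for the ER stress element, CCAAT and CCACG with 9 bases of any kind between them, which is known to bind ATF6 and XBP1 with NF-Y, for its second form, ATTGG and CCACG with 1 base between them, for the unfolded protein response element TGACGTGG, for the amino acid response element TGATGNAAN, which is known to bind ATF4 with C/EBP factors, and for the cyclic AMP response element TGACGTCA. Stretches are written along the strand of the gene, 5′ to 3′, with the fixed letters of the element in capitals, and an element in the opposite direction shows as its reverse complement.
HSPA5: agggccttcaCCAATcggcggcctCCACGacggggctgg
CALR: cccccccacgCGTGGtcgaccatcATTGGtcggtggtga
XBP1: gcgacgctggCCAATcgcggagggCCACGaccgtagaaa
CRELD2: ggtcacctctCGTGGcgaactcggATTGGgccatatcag
SDF2L1: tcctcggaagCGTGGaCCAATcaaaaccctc
HERPUD1: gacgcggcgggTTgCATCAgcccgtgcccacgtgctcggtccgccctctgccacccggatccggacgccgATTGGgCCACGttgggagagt
ASNS: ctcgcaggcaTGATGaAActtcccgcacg
ATF3: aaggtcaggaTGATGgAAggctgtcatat
CHAC1: ctcccctgccgTTgCATCActcctgccag
The HSPA5 stretch lies at chr9:125241381-125241419 on the minus strand, that of CALR at chr19:12938374-12938412 on the plus strand and that of XBP1 at chr22:28800593-28800631 on the minus strand, and each shows the ER stress element, as does CRELD2 at chr22:49918544-49918582 on the plus strand. SDF2L1 at chr22:21642104-21642134 (plus strand) shows the second form, and HERPUD1 at chr16:56931955-56932045 (plus strand) holds both the amino acid response element and the second form of the ER stress element. ASNS at chr7:97872458-97872486 (minus strand), ATF3 at chr1:212565206-212565234 (plus strand) and CHAC1 at chr15:40953251-40953279 (plus strand) show the amino acid response element.

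The ER stress element was present in 7 of the 40 members with a window (17.5%), namely HSPA5, HSP90B1, CRELD2, CALR, CANX, PDIA6 and XBP1, against 0.12% of all genes with a window. The 40 members had 54 windows, and a match in any window of a gene was counted. Its second form was present in HYOU1, SDF2L1 and HERPUD1, which is 7.5% against 0.0929% of all genes. The unfolded protein response element was present in HYOU1 alone among the members, where it overlaps the second form of the ER stress element, against 1.04% of all genes. The amino acid response element was in 5 members (12.5%), namely HERPUD1, ATF3, CHAC1, ASNS and SLC3A2, against 3.72% of all genes, and no member held the cyclic AMP response element, which 2.82% of all genes did. No gene of amino acid supply held the ER stress element in either form, and the 4 genes outside HERPUD1 with the amino acid response element were all regulators around ATF4 or genes of amino acid supply. The members were chosen by name from knowledge of this pathway, so a share above that of all genes could follow from the choice and was not tested. A match of letters is a description of the sequence and not a measured binding site.

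In control cells several genes of the folding machinery were among the most abundant of the set, while others were low. Per kb of merged exons, on 1 scale for all 11 libraries, CALR, the calcium-binding lectin calreticulin, stood first in both lines, at a mean of 639 ± 11.7 CPM per kb in PC3 and 423 ± 19.9 in DU145. HSPA5 was at 175 ± 2.45 CPM per kb in PC3 and 225 ± 11.8 in DU145. In DU145 PSAT1, of amino acid supply, was above it at 305 ± 5.62. The luminal chaperone DNAJB9 was at 7.80 ± 0.989 in PC3 and 5.91 ± 0.381 in DU145. The order also depends on the length used. With the longest transcript, PDIA3 moved from rank 14 to rank 3 in PC3. The ranges over PC3 control libraries of PDIA4 (173 to 178 CPM per kb) and HSPA5 (174 to 178) overlapped, so that their order in PC3 was not resolved. The sensor ERN1 was at only 0.733 ± 0.0422 and 0.47 ± 0.1 CPM per kb in the 2 lines, and ATF3 at 1.19 ± 0.0985 and 2.38 ± 0.062.

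**Figure D1:**
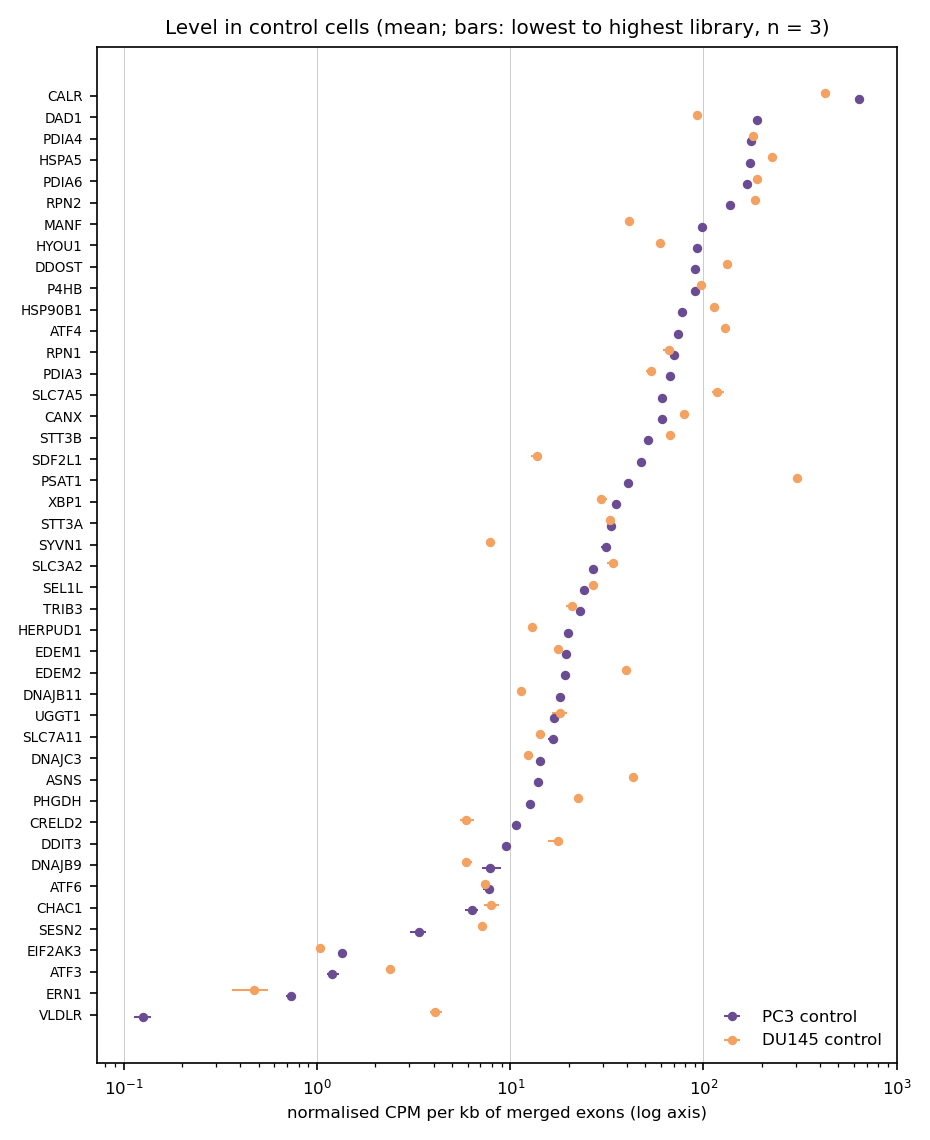
Level of the 44 genes in control cells of PC3 (purple) and DU145 (orange), as normalised CPM per kb of merged exons on a log axis, with the mean as a point and the lowest to highest of 3 libraries as a bar. CALR is at the top in both lines and VLDLR, ERN1 and ATF3 are at the bottom in PC3, while PSAT1 and VLDLR show the widest gaps between the lines.

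The 2 lines started from different levels. Of the 44 genes, 18 were higher and 20 lower in PC3 control than in DU145 control cells at an adjusted p under 0.05 in edgeR's quasi-likelihood test, in a comparison where 43.5% of all tested genes were higher and 42.8% lower. Among the 9 luminal chaperones 7 were higher in PC3, including SDF2L1 (log2 difference 1.79, standard error 0.12) and MANF (1.26, standard error 0.05), whereas HSPA5 (-0.36) and HSP90B1 (-0.56) were lower. Of the 13 regulators around ATF4 and genes mostly of amino acid supply, 10 were lower in PC3. Among them were ATF4 itself (-0.81, standard error 0.04), PSAT1 (-2.91, standard error 0.05) and VLDLR (-5.02, standard error 0.12). The tables of the lines were deposited separately, and the labels name no batch of library preparation. The line and any such batch cannot be told apart in these values.

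Few of the genes differed by much between the overexpression and control libraries of PC3. An adjusted p under 0.05 from edgeR's quasi-likelihood test with Benjamini-Hochberg adjustment over all 13544 genes tested, referred to as passing, was reached by 17 of the 44 genes, of which 5 were higher and 12 lower with overexpression. Among all genes tested in PC3, 37.3% passed, 18.8% higher and 18.5% lower, so the total was near that of any genes, with fewer rises and more falls. Past an absolute log2 fold change of 0.58 as well, the threshold of the study, were 2 members, ATF3 and CHAC1, both lower, where 1.76% of all genes fell by that much. The median log2 fold change over the 44 genes was -0.03, and over all genes tested it was -0.00159.

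In DU145, 13 of the 44 genes passed, 11 higher and 2 lower with overexpression, where 20.1% of all 13676 genes passed, 10.7% higher and 9.42% lower. The rises passing the fold change threshold were those of SLC7A11 and ERN1, where 4.33% of all genes rose by that much. The median over the 44 genes was 0.02. Without DU145 control replicate 1, 5 members passed higher and 1 lower, and without overexpression replicate 3 the number lower was 5. Most of the changes in either line were small. DU145 had 2 overexpression libraries, and standard errors there were between 0.07 and 0.22 for the 31 genes outside the ATF4 and amino acid groups. In PC3 they were between 0.02 and 0.08. Where groups are said further on not to overlap, this describes the values, and the share of all genes with separate groups was not counted. In DU145 the groups of DNAJC3, SDF2L1, SYVN1, EDEM1, PDIA4, EIF2AK3 and ATF3 were also separate, although none of these passed. On the scale of all libraries the same held for DAD1, DDOST and RPN2.

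**Figure D2:**
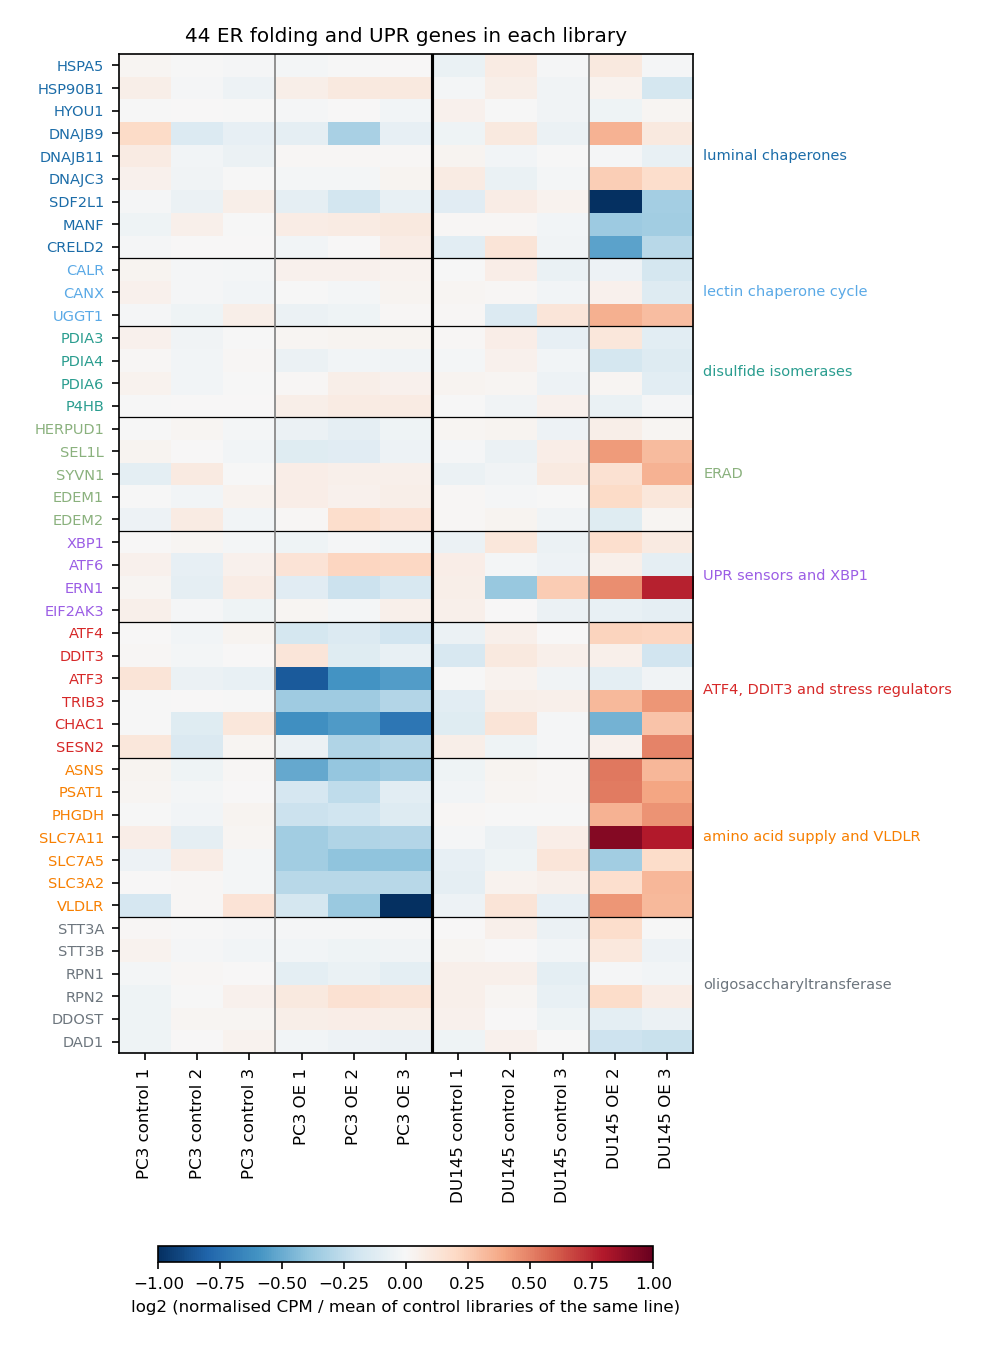
Log2 ratio of each of the 44 genes (rows, coloured by role) to the mean of the control libraries of its line, in each of the 11 libraries (columns; OE, ST6GAL1 overexpression), from blue at -1 through white at 0 to red at 1, values beyond being shown at the end of the scale. The rows from ATF4 to VLDLR are blue in PC3 OE, apart from DDIT3 in replicate 1, and mostly red in DU145 OE, while the chaperone, isomerase and oligosaccharyltransferase rows are mostly pale, with SDF2L1, MANF, CRELD2 and UGGT1 deeper in DU145 OE.

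The 9 luminal chaperones were close to flat in PC3 and showed 2 falls in DU145, where 9.42% of all genes fell. HSPA5 (Entrez 3309, chr9:125234853-125241343), the central ER chaperone and the usual readout of the unfolded protein response, was read at 1162, 1139.9 and 1136 normalised CPM in PC3 control libraries and at 1133, 1140.5 and 1148 with overexpression. The DU145 values were 1399, 1548 and 1450.5 in control and 1568 and 1455 in overexpression libraries. Groups overlapped in both lines, and the interval of the log2 fold change ran from -0.05 to 0.04 in PC3 and from -0.12 to 0.21 in DU145 (2 standard errors either side). The window of HSPA5 holds the ER stress element once, and that of HSP90B1, the ER form of HSP90, holds it in both directions. HSP90B1 rose in PC3 by a log2 fold change of 0.08 (standard error 0.03, edgeR adjusted p = 0.00717) and had -0.07 (adjusted p = 0.64) in DU145. The PC3 rise missed the threshold without control replicate 3 or without overexpression replicate 3.

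MANF, a small secreted ER stress protein, was the only luminal partner to pass in both lines, and it did so in opposite directions. In PC3 it was read at 204, 218 and 209 CPM in control and 221, 222 and 225 in overexpression libraries, a log2 fold change of 0.08 (standard error 0.03, edgeR adjusted p = 0.0263). DU145 libraries read 88.2, 88.2 and 85.4 in control and 67.7 and 68.5 with overexpression, so that both overexpression libraries lay below every control, at -0.36 (standard error 0.08, adjusted p = 0.00445). Its small PC3 rise did not pass with DESeq2, nor without control replicate 1 or 3 or overexpression replicate 2 or 3. CRELD2, another secreted ER stress protein, fell in DU145 from 28.3, 33.2 and 29.8 to 21 and 25.1 CPM (-0.40, standard error 0.12, adjusted p = 0.0257) and had 0.02 in PC3. The fall of CRELD2 did not pass with a GC and length trend removed, nor without control replicate 1, 2 or 3 or overexpression replicate 2 (adjusted p up to 0.151). SDF2L1, a partner of BiP and its co-chaperones, was read in DU145 at 13.4, 15.3 and 14.9 CPM in control and 6.34 and 11.5 with overexpression, which did not pass (adjusted p = 0.0615), the overexpression libraries differing by 1.81-fold. SDF2L1 did pass as a fall there with limma-voom, the tool of the study, with DESeq2, with all genes kept and under the replicate block. The remaining luminal members HYOU1, DNAJB9, DNAJB11 and DNAJC3 passed in neither line.

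Of the 7 lectin chaperone and disulfide isomerase genes, 1 passed in each line, where 37.3% of all genes passed in PC3 and 20.1% in DU145. CALR had log2 fold changes of 0.04 in PC3 and -0.11 in DU145, neither of which passed (adjusted p = 0.166 and 0.37). UGGT1, the glucosyltransferase that sends misfolded glycoproteins back to the lectins, rose in DU145 from 206, 186 and 222 to 263 and 254 CPM, without overlap of the groups (0.33, standard error 0.08, edgeR adjusted p = 0.0107), and had -0.03 (adjusted p = 0.486) in PC3. With a GC and length trend removed the DU145 value of UGGT1 was 0.18 and did not pass (adjusted p = 0.157), and the call was also lost without control replicate 1 or 2. P4HB, the classical protein disulfide isomerase, rose in PC3 by 0.08 (standard error 0.02, adjusted p = 0.00762), from 1004, 1011 and 1008 to 1051, 1064 and 1069 CPM, and had -0.04 in DU145. The rise of P4HB was lost with the trend removed, at 0.04 (adjusted p = 0.199), and without overexpression replicate 3. PDIA4 and PDIA6, which also form disulfide bonds, had -0.04 and 0.04 in PC3 and -0.15 and -0.04 in DU145 and did not pass. Reads of PDIA3, at 127346 counts over all libraries, may in part be shared with its processed pseudogene PDIA3P1, which held 12459 counts.

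The oligosaccharyltransferase, which puts the N-glycan on nascent chains and so makes the substrate that ST6GAL1 later caps in the Golgi, had 1 rise and 1 fall among 6 subunits in PC3 and no change that passed in DU145. The 33.3% of subunits that passed in PC3 is near the 37.3% of all genes, and in DU145 20.1% of all genes passed. RPN2, a shared subunit, rose in PC3 from 448, 461 and 477 to 495, 514 and 505 CPM (0.13, standard error 0.03, edgeR adjusted p = 1.33e-04), and it had the same estimate in DU145 of 0.13 (standard error 0.08, adjusted p = 0.268). RPN1, which contacts the ribosome, fell in PC3 by 0.09 on the log2 scale (standard error 0.03, adjusted p = 0.00884). The catalytic subunits STT3A and STT3B had log2 fold changes between -0.04 and 0.09 over the 2 lines, and DAD1, a small membrane subunit, had -0.22 in DU145 (adjusted p = 0.0736).

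Of the 5 ERAD genes, SEL1L passed in both lines and again in opposite directions. SEL1L (Entrez 6400, chr14:81471547-81533853) is the adaptor that holds the ubiquitin ligase SYVN1 (HRD1) in its complex. It fell in PC3 from 233, 229 and 225 to 210.4, 211 and 221 CPM (-0.10, standard error 0.03, edgeR adjusted p = 0.00749). In DU145 it rose from 252, 243 and 266 to 341 and 316 CPM (0.37, standard error 0.08, adjusted p = 0.00311). Groups did not overlap in either line. The fall of SEL1L in PC3 missed the threshold without overexpression replicate 2 (adjusted p = 0.0545), and its rise in DU145 did so with a GC and length trend removed, at 0.21 (adjusted p = 0.0729). SYVN1 itself did not pass (0.06 in PC3 and 0.26 in DU145, adjusted p = 0.202 and 0.0712), and nor did EDEM2, a mannosidase-like ERAD factor (0.11 and -0.05), HERPUD1 or EDEM1. SYVN1 overlaps MRPL49 in the annotation (22135 counts against 20748), and since the strand setting of the counting is not given in the sources used here their reads cannot be fully told apart.

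Among the sensors, ATF6 moved in PC3 and ERN1 in DU145. ATF6, the membrane-held transcription factor, was read in PC3 at 113, 104 and 113 CPM in control and 121, 128 and 127 in overexpression libraries, all of the latter being higher (0.19, standard error 0.04, edgeR adjusted p = 7.88e-05), and had -0.02 (adjusted p = 0.892) in DU145. ERN1, at a low level, was read in DU145 at 9.35, 6.88 and 10.7 CPM in control and 12.4 and 15.3 with overexpression, where both overexpression libraries were higher (0.64, standard error 0.18, adjusted p = 0.0273). ERN1 had -0.16 (adjusted p = 0.127) in PC3. The DU145 rise of ERN1 did not pass with DESeq2, with a GC and length trend removed, or without control replicate 1 or 2 or overexpression replicate 3, over which settings and the other alternatives its adjusted p ran from 6.00e-04 to 0.149. XBP1 mRNA, itself a target of ATF6, was read at 107, 108 and 105 CPM in PC3 control and 104, 106 and 104 in overexpression libraries, and at 85, 95.5 and 84.7 and 99.2 and 93.9 in DU145. Groups overlapped in both lines and the log2 fold changes of -0.03 (adjusted p = 0.601) and 0.13 (adjusted p = 0.313) did not pass. EIF2AK3 was within -0.08 and 0.02 in the 2 lines and did not pass.

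The regulators around ATF4 fell in PC3. Of these 6 genes 4 fell and none rose, where 18.5% of all genes fell. All 6 had negative log2 fold changes, and the median was -0.28. ATF4 (Entrez 468, chr22:39520559-39522686), the transcription factor of the integrated stress response, was read at 193, 189.9 and 197 CPM in PC3 control and 171, 176 and 169 in overexpression libraries (-0.17, standard error 0.03, edgeR adjusted p = 2.64e-05). DU145 control libraries read 323, 347 and 338 CPM and overexpression libraries 393 and 391 (0.22, standard error 0.07, adjusted p = 0.046). The groups did not overlap in either line, lower in PC3 and higher in DU145. The rise in DU145 was close to the threshold and missed it under the replicate block and in 4 of the 5 fits that left out 1 library (control replicate 1, 2 or 3 or overexpression replicate 2), with adjusted p from 4.01e-04 to 0.239 over all alternatives.

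TRIB3 (Entrez 57761, chr20:380760-397559), a pseudokinase induced by ATF4 and DDIT3 that feeds back on them, moved in the same way. In PC3 it was read at 75.6, 76.1 and 75.6 CPM in control and 59.1, 59.2 and 61.7 with overexpression (-0.34, standard error 0.04, edgeR adjusted p = 1.04e-08). In DU145 the values were 63.7, 71.4 and 71 and 86 and 93.2 (0.38, standard error 0.08, adjusted p = 0.00499, and 0.0673 without control replicate 1). Every overexpression library was below the controls in PC3 and above them in DU145.

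ATF3 and CHAC1, whose promoters hold the amino acid response element, showed the deepest falls that passed in PC3. ATF3, a stress-induced transcription factor, went from 5.21, 4.57 and 4.51 to 2.66, 3.15 and 3.23 CPM (-0.66, standard error 0.16, edgeR adjusted p = 9.95e-04), on raw counts of 93, 72 and 69 in control and 39, 57 and 51 in overexpression libraries. CHAC1, a glutathione-degrading enzyme, went from 12.9, 11.9 and 14.1 to 8.46, 8.74 and 7.84 CPM (-0.63, standard error 0.10, adjusted p = 1.08e-06). Groups of both genes were separate in PC3. Without control replicate 3 CHAC1 stayed a fall that passed, at -0.57, but was no longer past the fold change threshold. In DU145 ATF3 had -0.07 (adjusted p = 0.773), and CHAC1 was read at 15, 17.7 and 16.1 CPM in control and 11.7 and 19.8 with overexpression, where the overexpression libraries lay on either side of the controls.

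DDIT3, which encodes CHOP, the factor tied to the death arm of ER stress, did not move with ATF4. It was read at 12.5, 12.2 and 12.4 CPM in PC3 control and 13.4, 11.4 and 11.8 with overexpression, and at 20.5, 24.4 and 23.6 and 23.6 and 20.05 in DU145. Groups overlapped in both lines, with log2 fold changes of -0.03 (between -0.20 and 0.15) and -0.07 (between -0.31 and 0.17, 2 standard errors either side). DDIT3 overlaps the annotated span of MARS1, a more abundant transcript (46738 counts against 2934 over all libraries), so its values may hold reads of the latter. SESN2, a stress-induced inhibitor of mTORC1 signalling, had -0.22 in PC3 (adjusted p = 0.0771) and 0.29 in DU145 (adjusted p = 0.136).

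**Figure D3:**
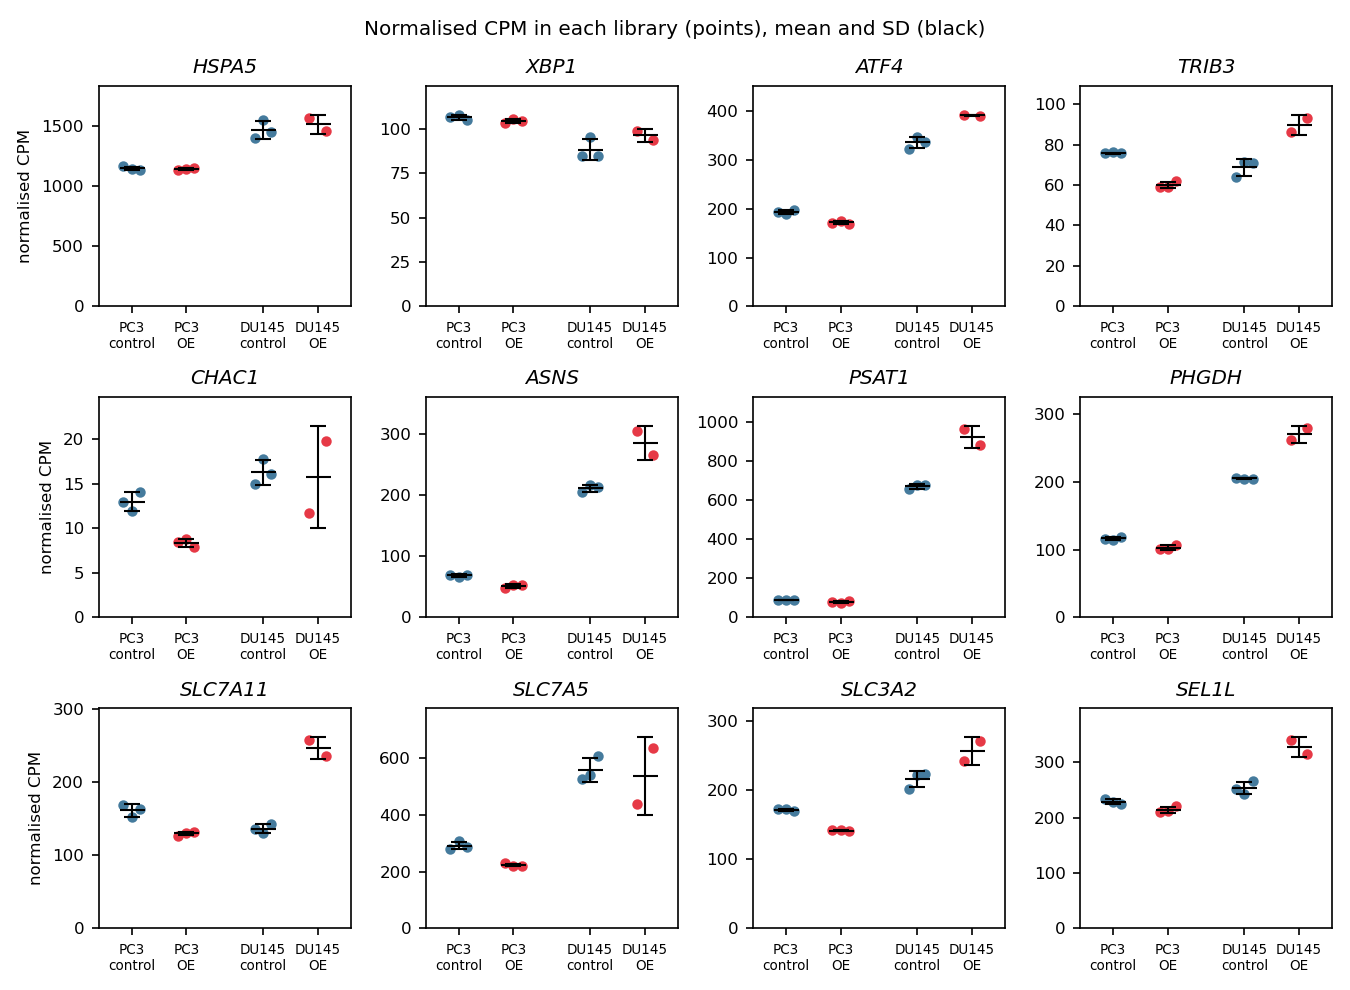
Normalised CPM of 12 genes in each library (blue, control; red, ST6GAL1 overexpression, OE), with the mean and SD in black (n = 3, and n = 2 for DU145 OE), on axes that start at 0. HSPA5 and XBP1 stay level, ATF4, TRIB3, ASNS, PSAT1, PHGDH, SLC7A11, SLC3A2 and SEL1L are lower with overexpression in PC3 and higher in DU145, and CHAC1 and SLC7A5 have widely spaced DU145 OE libraries.

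The 7 genes mostly of amino acid supply, with the lipoprotein receptor VLDLR counted among them, fell in PC3 and rose in DU145 in nearly every case. Of these 7 genes 6 fell in PC3 and none rose (median -0.32), where 18.5% of all genes fell. In DU145 6 rose and none fell (median 0.40), where 10.7% of all genes rose. The exceptions were VLDLR in PC3 and SLC7A5 in DU145.

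SLC7A11 (Entrez 23657, chr4:138164097-138242349), the cystine importer xCT, had the largest log2 fold change of the 44 genes in DU145. Control libraries of DU145 read 136, 131 and 143 CPM and overexpression libraries 258 and 236 (0.86, standard error 0.08, edgeR adjusted p = 3.09e-06). PC3 read 169, 152 and 164 in control and 127, 131 and 132 with overexpression (-0.32, standard error 0.04, adjusted p = 1.26e-09). The control level was somewhat higher in PC3 than in DU145 (log2 difference 0.23, standard error 0.05, edgeR adjusted p = 3.99e-04). Overexpression libraries were separate from the controls in both lines. Its partner SLC3A2 (Entrez 6520), the heavy chain shared by xCT and the leucine importer, fell in PC3 from 172, 173 and 169.6 to 142, 142 and 141 CPM (-0.28, standard error 0.03, adjusted p = 1.47e-09). In DU145 SLC3A2 rose from 202, 221 and 223 to 242 and 272 (0.25, standard error 0.08, adjusted p = 0.0382), a call lost under the replicate block and without control replicate 1, 2 or 3 or overexpression replicate 3 (adjusted p up to 0.238).

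SLC7A5 (Entrez 8140), the leucine importer LAT1, is the light chain that pairs with SLC3A2. In PC3 it was read at 281, 306 and 287 CPM in control and 229, 221 and 221 with overexpression (-0.38, standard error 0.03, edgeR adjusted p = 1.11e-13), with no overlap. In DU145 the controls read 526, 540.2 and 606 and the overexpression libraries 439 and 635, a ratio of 1.45 between the latter. Replicate 2 lay below and replicate 3 above every control, and the log2 fold change of -0.05 (standard error 0.16) did not pass. The same libraries split in CHAC1 (1.69-fold) and SESN2 (1.37-fold). With replicate 3 left out, SLC7A5, CHAC1 and SDF2L1 passed as falls in DU145, and with replicate 2 left out SESN2 passed as a rise, so that in DU145 the calls of these 4 genes change with the library that is left out. With all libraries kept, SDF2L1 passed with other tools, as given above, and SESN2 passed with a GC and length trend removed.

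The enzymes of serine and asparagine synthesis were more even between the libraries. ASNS (Entrez 440, chr7:97851677-97928441), asparagine synthetase, was read in PC3 at 69.7, 66.4 and 69.2 CPM in control and 48.1, 52.4 and 53.5 with overexpression (-0.41, standard error 0.05, edgeR adjusted p = 8.66e-10). In DU145 the values were 205, 215 and 213 and 305 and 265 (0.43, standard error 0.08, adjusted p = 0.00142). Both overexpression groups were separate from their controls.

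PHGDH, the first enzyme of serine synthesis, was read in PC3 at 116, 114 and 119 CPM in control and 100.5, 101 and 106 with overexpression (-0.18, adjusted p = 7.45e-05), and in DU145 at 206, 204 and 204 and 260.9 and 279 (0.40, standard error 0.07, adjusted p = 0.00124). PSAT1, the aminotransferase that follows it, went from 90.9, 88.4 and 90.02 to 79.8, 75.2 and 83.4 CPM in PC3 (-0.18, adjusted p = 3.84e-04) and from 656, 678 and 676 to 962 and 881 in DU145 (0.46, standard error 0.08, adjusted p = 8.16e-04). All 3 enzymes fell in PC3, where their levels were already lower than in DU145, and rose in DU145, and the calls held in every fit that left out 1 library. VLDLR, a lipoprotein receptor, rose in DU145 from 64.4, 72.8 and 62.9 to 90.7 and 83.4 CPM (0.38, standard error 0.09, adjusted p = 0.0068) and was at a low level in PC3, at 1.85, 2.09 and 2.29 and 1.84, 1.60 and 0.886. The DU145 rise of VLDLR was lost with the trend removed, at 0.22 (adjusted p = 0.101), and without control replicate 1.

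The 13 regulators and amino acid genes are set here beside the other 31 members. In PC3, where 18.5% of all genes fell and 18.8% rose, 10 of the 13 fell and none rose (median -0.32, against -0.00159 over all genes), while of the 31 others 5 rose and 2 fell, with log2 fold changes between -0.17 and 0.19. In DU145, where 10.7% of all genes rose and 9.42% fell, 8 of the 13 rose and none fell (median 0.29). Most of these rises were in the amino acid group, with 6 of 7. Of the 6 regulators 2 rose there, with 3 positive and 3 negative log2 fold changes (median 0.09). Of the 31 others 3 rose and 2 fell in DU145 (median -0.02), shares near those of all genes. With 1 library left out, between 10 and 11 of the 13 passed as falls in PC3 and between 4 and 8 as rises in DU145, the lowest number in DU145 being that without control replicate 1.

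Passing in both lines were 9 members, and none of these moved in the same direction. MANF was higher in PC3 and lower in DU145, and SEL1L, ATF4, TRIB3, ASNS, PSAT1, PHGDH, SLC7A11 and SLC3A2 were lower in PC3 and higher in DU145. Over all genes tested in both lines, 1094 passed in both, of which 440 (40.2%) moved in opposite directions. A further 8 members passed in PC3 only, 4 in DU145 only and 23 in neither. Over the 44 members the log2 fold changes of the 2 lines had a Pearson correlation of -0.34 and shared their sign in 13 genes (29.5%), against 0.05 and 52.8% over 12413 genes. These are descriptions across genes, which are not independent replicates.

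**Figure D4:**
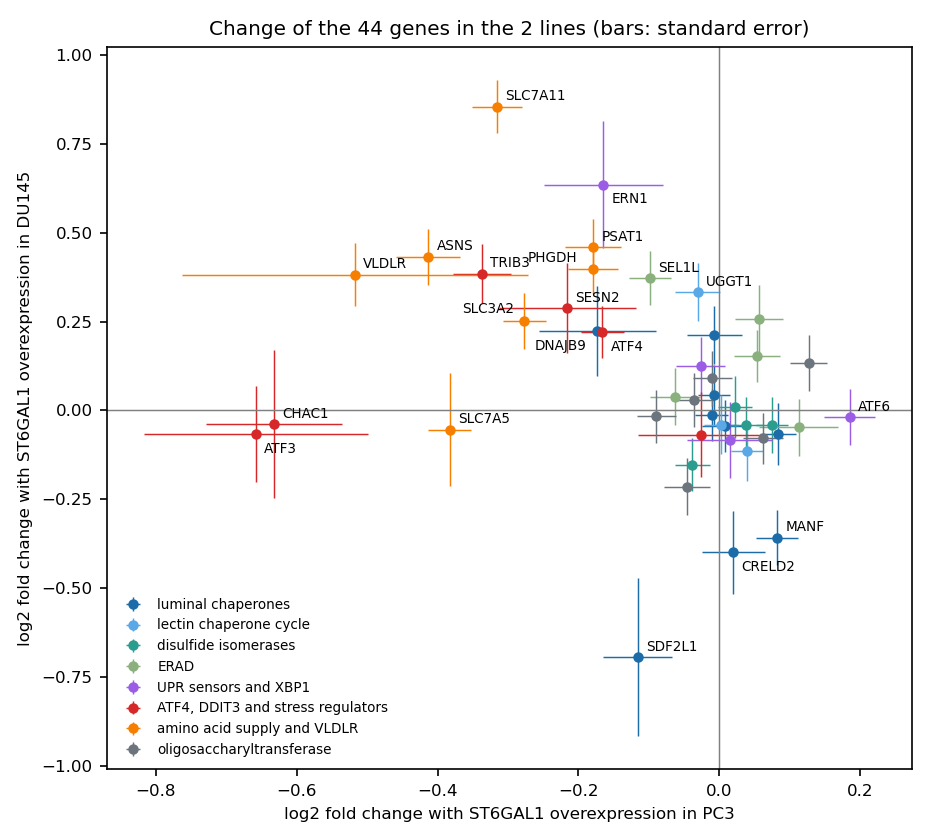
Log2 fold change with ST6GAL1 overexpression in PC3 (x axis) and in DU145 (y axis) for the 44 genes, coloured by role, with bars of 1 standard error. The ATF4 and amino acid genes lie in the upper left or at left, negative in PC3, and most chaperones, isomerases and oligosaccharyltransferase subunits lie near the origin.

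Whether the change differed between PC3 and DU145 was asked of an interaction term fitted to the 11 libraries together, for which 19.7% of 14952 genes passed. Of the 44 members 15 passed, 13 with the higher change in DU145 (10.4% of all genes) and 2 with the lower (9.36%), the latter being MANF (-0.45, standard error 0.07) and CRELD2 (-0.42, standard error 0.11). Among the 13 were 10 of the ATF4 and amino acid genes, the largest differences being those of SLC7A11 (1.17, standard error 0.08, edgeR adjusted p = 2.96e-09), VLDLR (0.89, adjusted p = 0.016) and ASNS (0.84, standard error 0.08, adjusted p = 6.59e-07). ATF4 itself differed by 0.38 (standard error 0.07, adjusted p = 2.85e-04), with adjusted p at most 0.00193 under every alternative. The differences of SEL1L, ERN1 and UGGT1 also passed, at 0.46, 0.80 and 0.36. HSPA5 differed by 0.05 (between -0.10 and 0.19) and did not pass. The lines also differed in the level that ST6GAL1 reached, so line and dose of the transgene cannot be told apart.

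Neighbouring pathways were read through lists of other genes. A list of 39 other known or reported ATF4 targets, of which 37 were tested in each line, had 19 falls and 4 rises in PC3 (median -0.14) and 15 rises and 1 fall in DU145 (median 0.20). Over all genes, 18.5% fell and 18.8% rose in PC3, and 10.7% rose and 9.42% fell in DU145, shares against which the other lists are read too. The number of rises in DU145 was 6 without control replicate 1 and 6 without control replicate 2. In PC3 the falls included 10 of 11 tested tRNA synthetases and CEBPB. In DU145 4 of the same 11 synthetases rose and none fell. Of the 36 tested in both lines 10 passed in both, of which 6 were lower in PC3 and higher in DU145. The list was not uniform: GDF15, a secreted stress cytokine, rose in PC3 from 33, 34.4 and 34.1 to 72.3, 67 and 71 CPM (1.05, standard error 0.05, edgeR adjusted p = 2.76e-21). NUPR1, a small stress-induced nuclear protein, rose in both lines, by 0.35 in PC3 (adjusted p = 0.00805) and 1.56 in DU145 (adjusted p = 3.92e-06). WARS1, tryptophanyl-tRNA synthetase, rose in DU145 from 151, 153 and 146 to 289 and 259 CPM (0.87, standard error 0.07, adjusted p = 2.76e-06) and had -0.06 in PC3. WARS1 is also known as a target of interferon gamma.

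Other genes of the ER itself were read in the same way, where 37.3% of all genes passed in PC3 and 20.1% in DU145. Of 33 tested other ER folding genes 6 rose and 2 fell in PC3, and of 32 in DU145 3 rose and 3 fell. FKBP10, a collagen-folding prolyl isomerase, rose in PC3 by 0.44 (edgeR adjusted p = 3.54e-15) and fell in DU145 from 57.9, 59.2 and 50.3 to 26.7 and 33.1 CPM (-0.90, adjusted p = 1.06e-04). Of 24 other ERAD genes 3 rose and 4 fell in PC3, and 1 rose and 2 fell in DU145. Among other regulators of the unfolded protein response 4 rose and 7 fell of 18 in PC3 (61.1% passing), and 4 rose of 17 in DU145 (23.5%). CREB3L1 in this list, an ER-held transcription factor of secretory cells related to ATF6, rose in PC3 from 49.2, 58.1 and 52.7 to 111, 119.8 and 113 CPM (1.11, standard error 0.05, adjusted p = 7.38e-22) and in DU145, at a far lower level, from 2.24, 2.27 and 1.72 to 3.17 and 3.90 (0.76, adjusted p = 0.028).

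Genes of N-glycan assembly rose in 8 of 30 cases in PC3 (26.7%, against 18.8% of all genes) with no fall, and in DU145 2 of 30 fell (6.67%, against 9.42%) and none rose. The translocon list had 2 rises and 8 falls of 25 in PC3 and 2 rises in DU145, where SEC63, a translocon partner of BiP, went from 66.2, 65.8 and 64.4 to 131 and 118 CPM (0.93, standard error 0.08, edgeR adjusted p = 2.25e-06). Transport from the ER to the Golgi had 5 rises and 1 fall of 28 genes in either line.

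**Figure D5:**
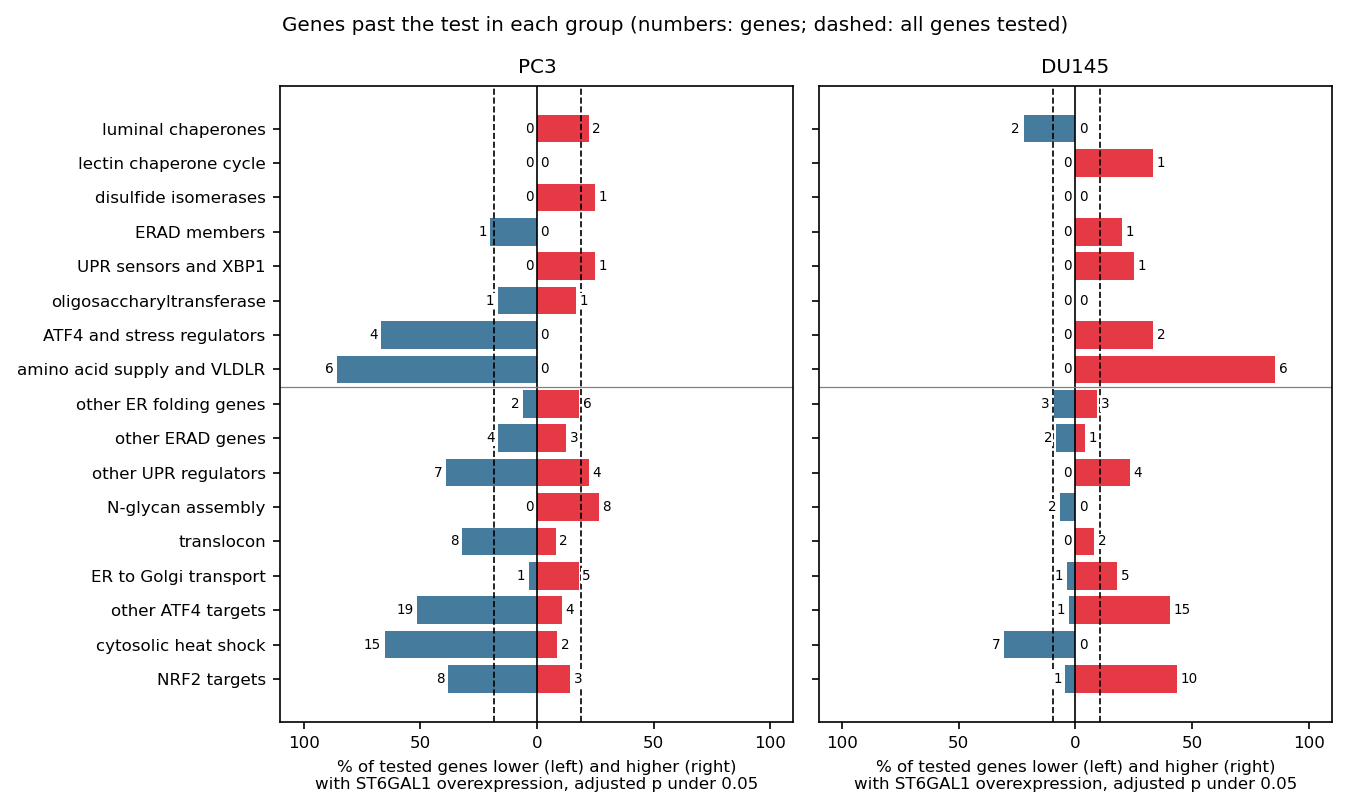
Share of the tested genes of each group that were lower (blue, to the left) or higher (red, to the right) with ST6GAL1 overexpression at an adjusted p under 0.05, in PC3 and DU145, with the number of genes at each bar and the share among all tested genes as dashed lines. The groups of the 44 genes stand above the grey line and the other lists under it. The ATF4 groups extend to the left in PC3 and to the right in DU145, and cytosolic heat shock extends to the left in both.

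Chaperones of the cytosol and targets of NRF2, which shares SLC7A11 with ATF4, were read beside them. The cytosolic heat shock list had 15 falls and 2 rises of 23 genes in PC3 and 7 falls and no rise of 23 in DU145. HSPA6, an inducible HSP70, rose in PC3 (0.66, edgeR adjusted p = 0.00735) and fell in DU145 (-1.13, adjusted p = 0.0456). HSPB8, a small heat shock protein, fell in PC3 (-1.02, adjusted p = 0.00332), and in DU145 it had counts of 10, 19 and 17 in control and 0 and 0 in overexpression libraries, at least 11.8-fold lower against a floor of 3 counts over the group. Of the NRF2 targets 3 rose and 8 fell of 21 in PC3, and 10 rose and 1 fell of 23 in DU145. AKR1C3, an aldo-keto reductase, went in DU145 from 11.2, 9.28 and 9.18 to 47.2 and 48 CPM (2.27, standard error 0.11, adjusted p = 2.07e-08) and fell in PC3 (-0.46, adjusted p = 0.0177), and AKR1B10 rose in DU145 by 2.20 (standard error 0.18). Reads of the closely related aldo-keto reductase genes may be split between their members. ABCC3, an efflux pump, rose in both lines, by 0.69 in PC3 (adjusted p = 1.42e-20) and 0.39 in DU145 (adjusted p = 0.00181). The rise of SLC7A11 in DU145 was accompanied by rises in both lists that hold its known regulators' targets, and their part in it was not tested.

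Set against the promoter letters, the 10 members with the ER stress element in either form had log2 fold changes between -0.12 and 0.08 in PC3 and between -0.70 and 0.13 in DU145. Of these, HSP90B1 rose in PC3 and CRELD2 fell in DU145, and no other passed. Of the 5 members with the amino acid response element, ATF3, CHAC1, ASNS and SLC3A2 fell in PC3 and HERPUD1 had -0.06 without passing. In DU145, ASNS and SLC3A2 rose, whereas ATF3, CHAC1 and HERPUD1 did not pass. The falls of ATF4, TRIB3, PSAT1, PHGDH and SLC7A5 in PC3 came in genes whose windows held no such letters, and the window of SLC7A11 was not at hand. Sequence outside the windows and variants of the letters were not searched, so these genes may hold the element elsewhere. The match of SLC3A2 lies 36 to 44 bases after an annotated start.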

How the data were processed

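RNA-Seq was carried out by the authors on RNA of stably transduced PC3 and DU145 cells (stranded mRNA libraries, single reads). Reads were trimmed with Cutadapt, mapped to hg38 with HISAT2 and counted with featureCounts in Galaxy, with FastQC and limma named beside it in the submitters' processing notes. Versions of these programs, the gene annotation and the strand setting are not given in the sources used here. The deposited values are counts per Entrez gene without normalization, in 1 table per line with the same 28395 genes, of which 97.7% matched the RefSeq gene table of GRCh38.p14. Without strand, reads of overlapping genes cannot be told apart.

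Tests were run on these counts in R 4.3.3 with edgeR 4.0.16 (filterByExpr, TMM, robust quasi-likelihood test, Benjamini-Hochberg adjustment), on all tested genes of each line, and over all 11 libraries for the interaction and for the control cells of the 2 lines. limma-voom was the study's tool and served as an alternative (limma 3.58.1), with DESeq2 1.42.0, other filters and factors, a replicate block, a GC and length trend and each library left out. A standard error is the absolute log2 fold change over the square root of F. A gene passed at an adjusted p under 0.05 and was called past an absolute log2 fold change of 0.58. Normalised CPM are on the TMM scale of each line, and levels per kb on that of all libraries, with merged exon lengths of GENCODE v44. Library totals ran from 13194485 to 18201359 counts.

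The members and the lists of other genes, written by hand, were chosen with earlier results of these data known. Named were members past both thresholds, the 2 with the smallest adjusted p per role and line, those passing in both lines in opposite directions, HSPA5, XBP1, ATF4 and DDIT3, and the 2 called genes with the smallest adjusted p per other list and line. Members outside the rule are given only by their values or as not passing, and those whose DU145 libraries disagree (SDF2L1, SESN2) were chosen after their values were seen, as was HERPUD1 for its promoter letters. Promoter windows came from RefSeq. Chi-square tests of replicate pairs found no library deposited as a copy of another. Scripts were tested on simulated counts.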

Additional observations from a re-analysis of the deposited data

Results flagged for a closer look

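The results named here had a change with ST6GAL1 overexpression that differed between PC3 and DU145 in the test of the difference itself (edgeR's quasi-likelihood interaction over all 11 libraries, adjusted p under 0.05 over 14952 genes), which 19.7% of all genes passed. The values are differences of log2 fold changes, positive where the change in DU145 was the higher.

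Among the regulators around ATF4 the difference was 0.38 for ATF4, 0.72 for TRIB3, 0.59 for ATF3 and 0.50 for SESN2. That of ATF3 was lost in 8 of 19 alternatives and that of SESN2 in 11 of 19. Among the genes of amino acid supply it was 1.17 for SLC7A11, 0.84 for ASNS, 0.63 for PSAT1, 0.57 for PHGDH and 0.52 for SLC3A2, and each of these 5 passed in all 19 alternatives, as did that of ATF4. VLDLR, at a low level in PC3, differed by 0.89, which was lost in 3 of 19.

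In the ER itself the difference was 0.46 for the ERAD adaptor SEL1L, 0.36 for UGGT1, 0.80 for the sensor ERN1, -0.45 for MANF and -0.42 for CRELD2. Of these 5, UGGT1 was lost in 1 of 19 alternatives, at 0.23 with a GC and length trend removed (adjusted p = 0.0597), and the others passed in all 19. Of the genes in the neighbouring lists, AKR1B10 differed by 2.74, AKR1C3 by 2.72, NUPR1 by 1.20, SEC63 by 0.96, WARS1 by 0.92, ABCC3 by -0.30, FKBP10 by -1.34 and HSPA6 by -1.79. ST6GAL1 itself, the overexpressed gene, differed by 1.06. No group had 4 or more libraries, so single libraries could not be tested for standing apart. The part of the line, of the level of ST6GAL1 and of any batch of library preparation in these differences cannot be told apart.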

How the results depend on the processing

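Each member that passed in PC3, in DU145 or in the interaction had the same direction in all alternatives run for it, while the comparison of control cells was repeated only as counts and single genes of the other lists were not repeated. In DU145, 8 of the 13 passing members lost the threshold in at least 1 alternative and 5 never did. The numbers lost were 4 of 17 in PC3 and 4 of 15 in the interaction. The pooled counts that follow also hold HSPA5, XBP1 and DDIT3, which did not pass and count as kept. Over the fits that left out 1 library, 357 single-gene results kept their side of the threshold and 41 lost it, and over the other alternatives (limma-voom, DESeq2, RLE factors, at least 10 counts in all samples, all genes kept, replicate block, GC and length trend removed) 409 kept it and 23 lost it. With a fold change threshold of 0.3 in place of 0.58, 6 members were called in PC3, 11 in DU145 and 15 in the interaction, and with a threshold of 1 the numbers were 0, 0 and 1, with 9 between the lines in control cells. With 1 library left out in turn, the members in PC3 ranged from 2 to 8 higher (2 without overexpression replicate 3, 3 without control replicate 3 and 8 without control replicate 2) and from 1 to 2 past the fold change threshold. In DU145 they ranged from 5 to 12 higher, from 1 to 5 lower and from 1 to 2 past the threshold, with 4 to 8 of the regulators and amino acid genes and 6 to 18 of the other ATF4 targets higher. In the interaction 2 to 5 were lower. Leaving out a DU145 overexpression library leaves 1, which is then assumed to vary like the controls.

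The replicate number as a block left 17 members passing in PC3 and 13 in DU145, where ATF4 and SLC3A2 were lost and DNAJC3 and SDF2L1 gained, and gave 5 lower in the interaction. The numbers were not taken to pair the samples, but pairing was not excluded. Deviations of same-numbered PC3 libraries correlated by 0.0039, 0.072 and 0.036, and DU145 has only 2 such pairs (0.13 and 0.37). With 2 overexpression libraries the DU145 deviations mirror each other, so these values are not separate evidence. Over all genes, the block changed the number passing from 5056 to 5155 in PC3 and from 2747 to 3669 in DU145. In the interaction it went from 2949 to 3551. In PC3 libraries 2 and 3 correlated best with their own number and library 1 did not. With a GC and length trend removed, which took up 9.0% of the gene-wise variance of the changes of DU145 and 0.511% of those of PC3, P4HB no longer passed in PC3, ERN1, SEL1L, VLDLR, UGGT1 and CRELD2 in DU145 and UGGT1 and ATF3 in the interaction, DAD1, SESN2 and SYVN1 passed anew in DU145, and 6 members were lower in the interaction. With trend and block together 5 were lower in DU145 and 7 in the interaction. The cause of these shifts was not tested. DESeq2 lost MANF in PC3 and ERN1 in DU145, and SDF2L1 passed in DU145 with DESeq2, limma-voom or all genes kept. The higher spread and 2 overexpression libraries in DU145 limit what could be detected there.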
